A study of Mus musculus with 9 samples.

Results

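The genes of base excision repair and of single-strand break repair were compared between 3 mouse fibroblast lines. The group holds 30 genes of the 24647 that the arrays name, chosen by symbol for their place in the pathway in which Ape1 acts. Each symbol was read from the transcript cluster (the set of probes that the array design assigns to a gene) with the highest mean over the 9 arrays. All 30 were measured, and 29 of them lay above the median level of all transcript clusters, the exception being Neil2. Mouse embryonic fibroblasts (MEFs), connective tissue cells grown from the embryo, were studied in 3 groups of 3 culture dishes, named human APE1, mouse Ape1 and vector control. According to the labels and design text, the groups share male origin, a background isogenic to "C56BL/6", the genotype mApe1-/- with a human APE1 transgene, and descent from a line whose Ape1 level is put at 0.2% of that of normal MEFs. The authors' deposited table states an APE1 level in vector control to that in either other line of about 1 to 500, and Ape1 itself is not analysed here, so this was not checked. By that genotype the vector control cells carry the human transgene as well, and the sources used here do not state the making of the 3 lines. Each group is 1 line, so the p-values measure the spread between dishes of a line, and what a line inherited and what its vector did cannot be told apart.

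Base excision repair removes small lesions, such as oxidised, deaminated or alkylated bases, from DNA. A glycosylase cuts out the damaged base, the AP endonuclease Ape1 nicks the strand at the empty site, DNA polymerase beta fills the gap and ligase 3 with its scaffold Xrcc1 seals it. A longer patch can be made with the sliding clamp Pcna, the flap nuclease Fen1 and ligase 1. Poly(ADP-ribose) polymerases sense the nick, and enzymes such as aprataxin and Tdp1 clean blocked ends. Ape1 is also known as a redox factor that keeps transcription factors such as AP-1 and HIF1 able to bind DNA.

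Array medians lay between 5.64 and 5.75 on the log2 scale. Taken across clusters, which do not count as replicates, r between arrays was 0.990 to 0.993 within a group, while pairs from unlike groups gave 0.977 to 0.987. All 8 fibroblast markers that were checked lay above the median level, Vim, vimentin, and Fn1, fibronectin, at the 99.7th percentile and Thy1 at the 53rd. Of the markers of other cell types, 1 of 4 epithelial (25.6th to 62.4th percentile), 2 of 3 endothelial (46.8th to 58.1th), 1 of 3 macrophage (13.2th to 74.3th), 2 of 3 skeletal muscle (47.1th to 74.9th) and 1 of 3 adipocyte genes (16.7th to 54.5th) also lay above it, and Adgre1 was not matched. Summed fibroblast marker levels were 76.0 to 76.5 in human APE1, 78.4 to 78.9 in mouse Ape1 and 80.5 to 81.3 in vector control. Within that list Vim ran the other way, with means of 13.04 in human APE1, 13.19 in mouse Ape1 and 12.85 in vector control, and Col1a2 was highest in mouse Ape1 (9.93, 11.13 and 10.6 in the same order of lines). Thy1 was also highest in mouse Ape1 (5.808, 5.915 and 5.879), while Col3a1 (9.085, 8.734 and 9.955) and Fn1 (12.99, 12.81 and 13.01) were lowest there. Only Col1a1 (11.15, 11.77 and 12.09), Pdgfra (5.733, 6.392 and 7.581) and Pdgfrb (8.534, 8.673 and 8.947) followed the order of the sums. Summed skeletal muscle marker levels were 19.8 to 20.2 in human APE1, 18.6 to 19 in mouse Ape1 and 19.7 to 20.2 in vector control, and Des, desmin, averaged 8.13, 7.16 and 8.04 in these lines. The part of these markers in the results was not tested. In these cultures fewer cells of a type and less RNA per cell cannot be told apart. Differences are between group means of log2 values, with the first-named line minus the second, and a rise or a fall is an adjusted p under 0.05 in limma over all 41345 transcript clusters.

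The first comparison asked how the human APE1 line differs from vector control. Among the 30 repair genes 5 rose and 3 fell. Polb, DNA polymerase beta, Tdp1 and Aptx, which clean blocked DNA ends, Fen1, the flap nuclease, and Rpa2, a subunit of the single-strand binding protein RPA, were higher. Lig3, the nick-sealing ligase, Parp2, a nick-sensing polymerase, and Neil1, a glycosylase for oxidised pyrimidines, were lower. No member differed by more than 1.39-fold. The 8 members that passed are 26.7% of the 30, against 11.8% of all transcript clusters (5.4% rose and 6.35% fell), 15.7% of named genes and 26.8% of named genes above the median level (11.4% rose and 15.4% fell), the class to which all but Neil2 belong. The share of repair genes that passed was thus close to that of named genes above the median level. That class was not matched to the members' levels, which apart from Neil2 lay at the 69.7th percentile or higher. The median absolute difference was 0.18 for the members and 0.16 for those named genes. The values of both lines did not overlap for 18 members (60.0%), for 26.7% of all transcript clusters and for 50.8% of named genes above the median level. The count depended on single arrays, with 3, 2 and 2 members without vector control replicate 1, 2 or 3, 2 without human APE1 replicate 1, 3 without human APE1 replicate 2 and 5 without mouse Ape1 replicate 1. After array medians were subtracted 0 members rose and 4 fell, and after chromosome medians were subtracted 2 rose and 2 fell. After quantile normalization was run again 5 rose and 3 fell, so that split changed with some scalings and not with others. Over all transcript clusters 2233 rose and 2626 fell, against 1534 and 2741 after array medians were subtracted and 2214 and 2540 after quantile normalization.

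The second comparison asked how the mouse Ape1 line differs from vector control. In the mouse Ape1 line 2 members rose, Polb and Tdp1, and 6 fell. Lower were Lig3 and Parp2, as in the human APE1 line, and also the glycosylases Nthl1 and Neil3, the polymerase Parp3 and Rpa1, the large subunit of RPA. The largest difference was 1.40-fold. The 8 members that passed are 26.7%, against 16.2% of all transcript clusters (9.09% rose and 7.07% fell), 19.9% of named genes and 33.1% of named genes above the median level (16.5% rose and 16.7% fell). The values did not overlap for 16 members (53.3%), against 33.1% of all transcript clusters and 58.1% of named genes above the median level. Without a vector control array the count was 5 whichever was left out, and it was 5 without mouse Ape1 replicate 1 and 4 without mouse Ape1 replicate 3. The balance over all transcript clusters turned round with the scaling: 3758 rose and 2923 fell in the deposited values, 2805 and 3504 after array medians were subtracted, and 3186 and 3638 after quantile normalization was run again. Among the members 2 rose and 6 fell after array medians were subtracted, and 2 rose and 9 fell after quantile normalization.

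Set against each other, the human APE1 and mouse Ape1 lines differed in 7 members (23.3%), 5 higher and 2 lower in the human APE1 line. Nthl1, Parp3, Rpa1, Fen1 and Aplf, a histone-binding repair factor that reads ADP-ribose, were higher in human APE1, and Ung, the uracil glycosylase, and Apex2, the relative of Ape1, were lower. The same test called 12.4% of all transcript clusters (4.91% higher and 7.5% lower), 16.6% of named genes and 28.2% of named genes above the median level (12.2% higher and 16% lower). The 2 lines did not overlap for 16 members (53.3%), against 28.7% of all transcript clusters and 53% of named genes above the median level. After chromosome medians were subtracted 5 members were higher and 1 lower. The 3 comparisons were also made at once, in an F-test that 13 members (43.3%) passed, against 20.4% of all transcript clusters, 26.1% of named genes and 44.1% of named genes above the median level. Without vector control replicate 1 or 2 the F-test count was 8.

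**Figure D1:**
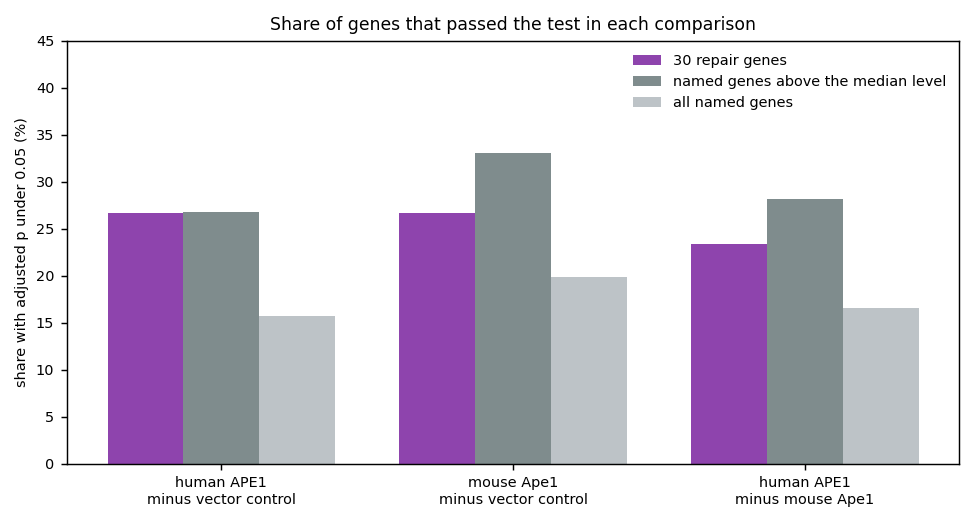
Bars give the share of genes with an adjusted p under 0.05 (vertical axis, percent) in each of the 3 comparisons, for the 30 repair genes, for named genes above the median level of all transcript clusters and for all named genes. The repair genes stand at 26.7%, 26.7% and 23.3%, and the named genes above the median level at 26.8%, 33.1% and 28.2%.

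Over the 3 comparisons 15 members (50%) passed at least once, against 23.3% of all transcript clusters and 48.2% of named genes above the median level. Polb, Lig3, Parp2 and Tdp1 passed against vector control in both lines and moved the same way in each, 13.3% of the members, against 5.92% of all transcript clusters and 13.4% of named genes above the median level. Both comparisons use the same vector control arrays, so these values are not independent of each other. Of the 23 calls of single members, 8 held under each of the 18 alternative settings, and 10 held whichever array was left out. For calls that were lost, the settings named below are not always a full list.

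**Figure D2:**
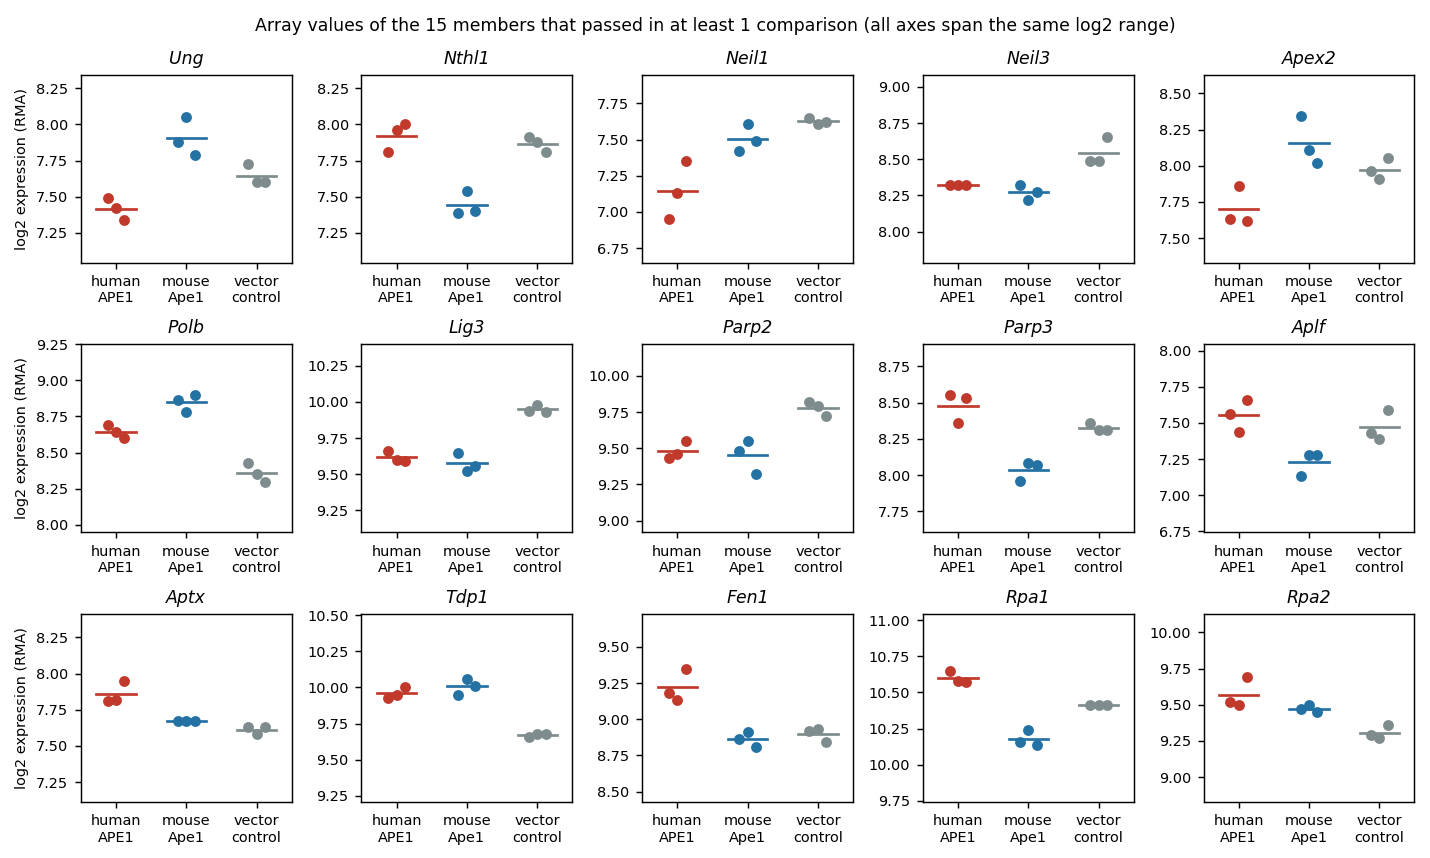
Each panel shows the log2 expression value of a member on the 3 human APE1, 3 mouse Ape1 and 3 vector control arrays, as points, with the group mean as a line. Lig3 lay between 9.52 and 9.66 on the 6 arrays of the human APE1 and mouse Ape1 lines, below the 3 vector control arrays (9.93 to 9.98).

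Of the 4 gap-filling and sealing genes, Lig3 fell and Polb rose in both lines against vector control. Lig3, DNA ligase 3, had 9.66, 9.60 and 9.59 in human APE1, 9.65, 9.52 and 9.56 in mouse Ape1, and 9.94, 9.98 and 9.93 in vector control. The values of either line lay below all 3 of vector control. Lig3 fell in human APE1 (−0.34, SE 0.057, adjusted p = 0.00745) and in mouse Ape1 (−0.37, adjusted p = 0.00335), a drop of 1.26-fold and 1.3-fold, and neither call was lost under any alternative setting (adjusted p up to 0.0311 and 0.0165). For Lig3 the authors' deposited table gives vector control over human APE1 as 1.18 (p = 1.1e-05) and vector control over mouse Ape1 as 1.25 (p = 1.62e-06). The 2 lines did not pass against each other for Lig3 (0.04, 95% interval −0.09 to 0.17), though the authors' deposited table gives human APE1 over mouse Ape1 as 1.06 (p = 0.00215), which passed after adjustment (adjusted p = 0.0269). Xrcc1, the scaffold that holds ligase 3 at the nick, had 8.79 to 8.89 in human APE1, 8.83 to 8.89 in mouse Ape1 and 8.92 to 9.09 in vector control. The vector control values of Xrcc1 lay above those of both lines, but it did not pass in human APE1 (−0.20, adjusted p = 0.102) or mouse Ape1 (−0.18, adjusted p = 0.116). With the p-values of the authors' deposited table Xrcc1 passed in both (adjusted p = 0.00954 and 0.0146), and it also passed in both when dim transcript clusters were left out. Xrcc1 lies on chromosome 7, whose median difference was −0.12 in human APE1 and −0.1 in mouse Ape1 against vector control. After chromosome medians were subtracted, Xrcc1 differed by −0.09 in human APE1 (adjusted p = 0.427).

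Polb, the polymerase that fills the gap and removes the sugar remnant, had 8.69, 8.64 and 8.60 in human APE1, 8.86, 8.78 and 8.90 in mouse Ape1, and 8.43, 8.35 and 8.30 in vector control. The 3 lines did not overlap, mouse Ape1 highest and vector control lowest. Polb rose in mouse Ape1 by 0.48 (1.40-fold, SE 0.062, adjusted p = 0.00153), a call kept under every alternative setting (adjusted p up to 0.00897). Its rise in human APE1 was smaller (0.28, 1.22-fold, adjusted p = 0.0232), and it did not hold without vector control replicate 2 or 3 or human APE1 replicate 1 or 2 (range of adjusted p 0.0678 to 0.0815) or after array medians were subtracted. That call was also lost with the replicate number as a block (adjusted p = 0.0506) and with only the 2 groups in the fit (adjusted p = 0.0586). The difference of Polb between human APE1 and mouse Ape1 did not pass (−0.20, 95% interval −0.34 to −0.06, adjusted p = 0.0795). That difference passed under 3 alternative settings, among them the p-values of the authors' deposited table. Poll, polymerase lambda, a backup gap filler, differed by 0.01 in human APE1 and −0.18 in mouse Ape1 against vector control, with no pass in either (adjusted p = 0.945 and 0.175).

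The 11 glycosylases, which start the pathway by removing a damaged base, held 0 rises against vector control. In human APE1 1 of them fell and in mouse Ape1 2 fell. Of named genes above the median level, 11.4% rose and 15.4% fell in human APE1, and 16.5% rose and 16.7% fell in mouse Ape1, so nothing particular to the glycosylases is read from so few calls. Nthl1, which removes oxidised pyrimidines, had 7.81, 7.96 and 8.0 in human APE1, 7.39, 7.54 and 7.40 in mouse Ape1, and 7.91, 7.88 and 7.81 in vector control. Mouse Ape1 stood apart, below every array of the other lines. Nthl1 fell in mouse Ape1 against vector control by 0.42 on the log2 scale (1.34-fold, SE 0.073, adjusted p = 0.00635), and it was higher in human APE1 than in mouse Ape1 (0.48, 1.40-fold, adjusted p = 0.00373). Both calls of Nthl1 held under each alternative setting (adjusted p up to 0.0291 and 0.0193), and human APE1 differed from vector control by 0.06 (95% interval −0.11 to 0.23). For Nthl1 the authors' deposited table gives vector control over mouse Ape1 as 1.44 (p = 0.000182).

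Ung, which removes uracil from DNA, had 7.49, 7.42 and 7.34 in human APE1, 7.88, 8.05 and 7.79 in mouse Ape1, and 7.73, 7.60 and 7.60 in vector control. The 3 lines did not overlap, with vector control in the middle. Ung was lower in human APE1 than in mouse Ape1 (−0.49, 1.40-fold, SE 0.083, adjusted p = 0.00616), and the call held under each alternative setting (adjusted p up to 0.0245). Against vector control Ung did not pass in human APE1 (−0.23, adjusted p = 0.129) or in mouse Ape1 (0.26, adjusted p = 0.0733). In mouse Ape1 it did pass with the p-values of the authors' deposited table and when dim transcript clusters were left out.

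Neil1, which acts on oxidised pyrimidines, also in single-stranded DNA, had 6.95, 7.13 and 7.35 in human APE1, 7.42, 7.61 and 7.49 in mouse Ape1, and 7.65, 7.61 and 7.62 in vector control. The human APE1 dishes lay lowest and spread most (7.15 ± 0.20, SD, n = 3). Neil1 fell in human APE1 against vector control (−0.48, 1.39-fold, SE 0.102, adjusted p = 0.0198). The call was lost without any 1 of the vector control arrays or human APE1 replicate 1 or 2 (range of adjusted p 0.0503 to 0.0659) and with the p-values of the authors' deposited table. Neil3, a glycosylase of proliferating cells, had 8.32 on each human APE1 array, 8.32, 8.22 and 8.27 in mouse Ape1, and 8.49, 8.49 and 8.65 in vector control. It fell in mouse Ape1 (−0.28, adjusted p = 0.0215), a call lost without vector control replicate 3 or mouse Ape1 replicate 2 or 3 (adjusted p = 0.0573 to 0.072), and missed the threshold in human APE1 (−0.22, adjusted p = 0.0616). Smug1, Tdg, Mbd4, Ogg1, Mutyh, Neil2 and Mpg did not pass in any comparison. They include Ogg1, the main enzyme for oxidised guanine, with 7.39 to 7.62 in human APE1, 7.36 to 7.57 in mouse Ape1 and 7.67 to 7.84 in vector control. The vector control values of Ogg1 lay above those of both lines, and its differences were −0.26 (adjusted p = 0.123) and −0.24 (adjusted p = 0.132).

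Apex2, the second AP endonuclease of mammals and a weaker enzyme than Ape1, had 7.63, 7.86 and 7.62 in human APE1, 8.34, 8.11 and 8.02 in mouse Ape1, and 7.96, 7.91 and 8.05 in vector control. Human APE1 lay below both other lines, while mouse Ape1 and vector control overlapped. Apex2 was lower in human APE1 than in mouse Ape1 (−0.45, 1.37-fold, SE 0.102, adjusted p = 0.0241). The call was lost without human APE1 replicate 1 or 3 or mouse Ape1 replicate 1 or 2 (range of adjusted p 0.0562 to 0.0823). It was also lost with the replicate number as a block and with only the 2 groups in the fit. Apex2 lies on the X chromosome, whose expressed genes had a median difference of −0.31 in the same comparison, and after chromosome medians were subtracted Apex2 differed by −0.16 (adjusted p = 0.425). Against vector control Apex2 did not pass in human APE1 (−0.27, adjusted p = 0.151) or mouse Ape1 (0.18, adjusted p = 0.301). With the p-values of the authors' deposited table it passed in human APE1 (adjusted p = 0.0448).

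**Figure D3:**
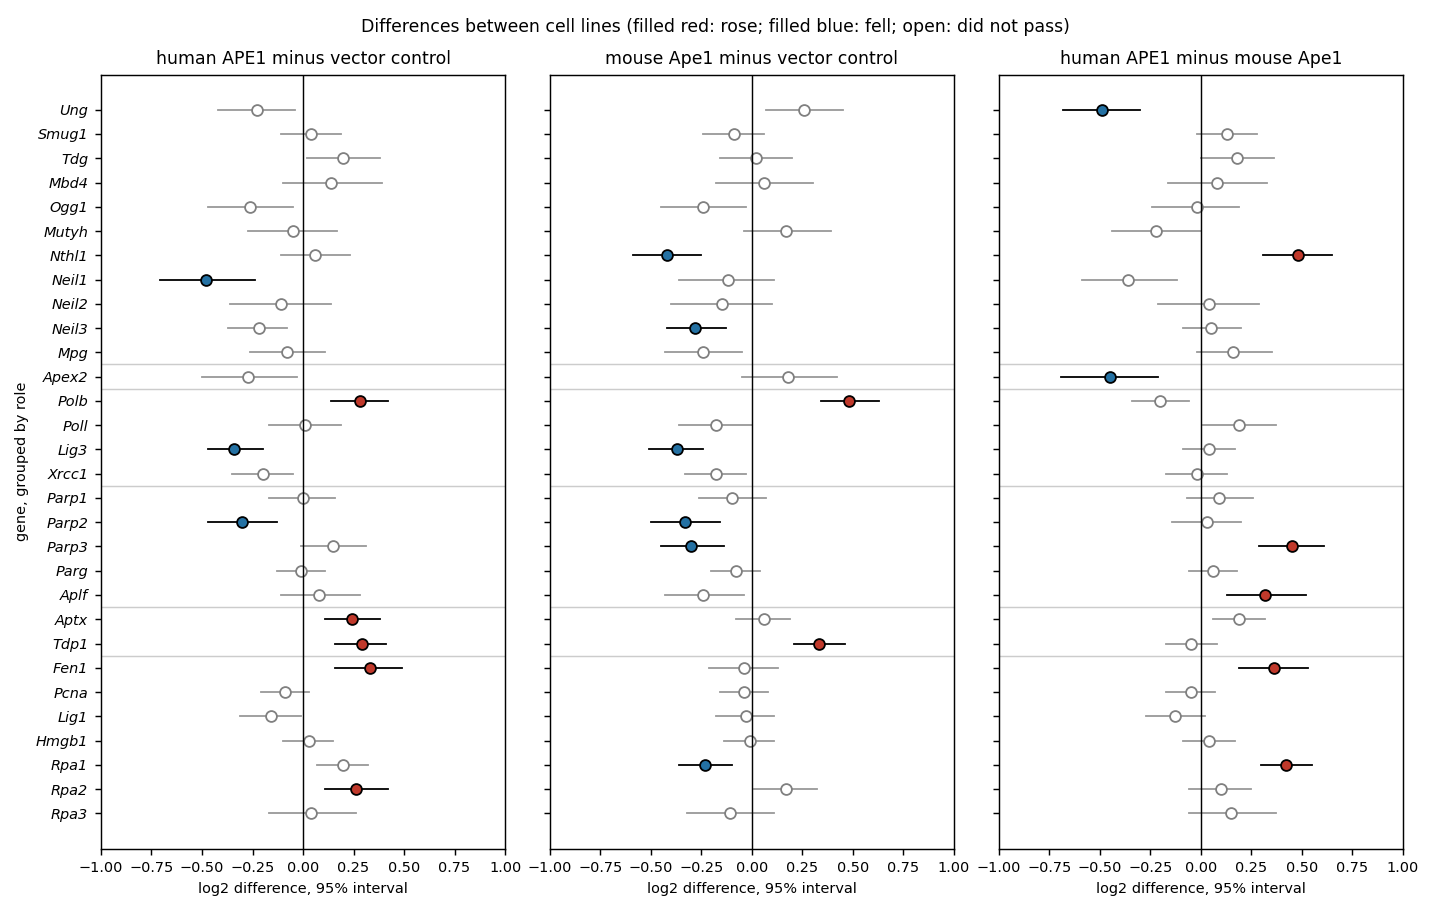
Points give the difference of group means (horizontal axis, log2) of each of the 30 repair genes in the 3 comparisons, with 95% intervals from limma as bars, and grey lines part the groups of genes by role. Every point lies between −0.49 and 0.48, red points rose, blue points fell and open points did not pass.

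The genes of ADP-ribose signalling recruit repair factors to a nick. Parp1, the most active of these polymerases, had 10.51 to 10.66 in human APE1, 10.43 to 10.56 in mouse Ape1 and 10.52 to 10.65 in vector control, and passed in no comparison. Its 95% intervals were −0.17 to 0.16 in human APE1 and −0.26 to 0.07 in mouse Ape1 against vector control. Parp2, its smaller relative, had 9.43, 9.46 and 9.55 in human APE1, 9.48, 9.55 and 9.32 in mouse Ape1, and 9.82, 9.79 and 9.72 in vector control. All 6 values of Parp2 in the human APE1 and mouse Ape1 lines lay below the 3 of vector control. Parp2 fell in human APE1 (−0.30, 1.23-fold, adjusted p = 0.035) and in mouse Ape1 (−0.33, 1.25-fold, adjusted p = 0.0193). The call in human APE1 was lost without any 1 of the vector control arrays, human APE1 replicate 1 or 2 or mouse Ape1 replicate 1 (range of adjusted p 0.0573 to 0.113), and that in mouse Ape1 without vector control replicate 1 or 2 or mouse Ape1 replicate 1 or 3 (adjusted p = 0.0516 to 0.0623). Both calls of Parp2 were also lost after chromosome medians were subtracted and with the p-values of the authors' deposited table.

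Parp3, a polymerase of strand break repair, had 8.55, 8.36 and 8.53 in human APE1, 7.96, 8.08 and 8.07 in mouse Ape1, and 8.36, 8.31 and 8.31 in vector control. Mouse Ape1 lay below both other lines. Parp3 was higher in human APE1 than in mouse Ape1 (0.45, 1.36-fold, SE 0.069, adjusted p = 0.00388), and the call held under each alternative setting (adjusted p up to 0.0199). Its fall in mouse Ape1 against vector control (−0.30, adjusted p = 0.0224) was lost without any 1 of the vector control arrays or mouse Ape1 replicate 1 or 3 (adjusted p = 0.0542 to 0.081). Aplf had 7.56, 7.44 and 7.66 in human APE1 and 7.13, 7.28 and 7.28 in mouse Ape1, with vector control at 7.43, 7.39 and 7.59. It was higher in human APE1 than in mouse Ape1 (0.32, adjusted p = 0.0424), a call that did not hold when 7 of the 9 arrays were left out in turn, all but human APE1 replicate 2 and vector control replicate 3 (adjusted p = 0.0563 to 0.137). Parg, the hydrolase that removes ADP-ribose chains, passed in no comparison and had the identical deposited value of 8.46 on all 3 human APE1 arrays.

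Of the end-processing enzymes, Tdp1 frees DNA ends from a trapped topoisomerase and Aptx reverses failed ligations. Tdp1 had 9.93, 9.95 and 10.00 in human APE1, 9.95, 10.06 and 10.01 in mouse Ape1, and 9.66, 9.68 and 9.68 in vector control. Both lines lay above all vector control arrays. Tdp1 rose in human APE1 (0.29, 1.22-fold, SE 0.054, adjusted p = 0.0117) and in mouse Ape1 (0.33, 1.26-fold, adjusted p = 0.00449), whichever array was left out (adjusted p up to 0.0383 and 0.0199). Tdp1 lies on chromosome 12, where 415 expressed genes had a median difference of 0.09 in human APE1 and 0.37 in mouse Ape1. After chromosome medians were subtracted, Tdp1 differed by 0.18 in human APE1 (adjusted p = 0.0843) and by −0.01 in mouse Ape1 (adjusted p = 0.951), and its call in human APE1 was also lost after array medians were subtracted (0.24, adjusted p = 0.0784). Aptx, aprataxin, had 7.81, 7.82 and 7.95 in human APE1, 7.67 on each mouse Ape1 array, and 7.63, 7.58 and 7.63 in vector control. It rose in human APE1 (0.24, 1.18-fold, adjusted p = 0.0294), a call lost whichever of the 9 arrays was left out (adjusted p = 0.0508 to 0.0892).

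The promoters of Tdp1, Lig3 and Parp2 are shown because these genes moved the same way against vector control in both lines and have an entry in the promoter table. Each line gives the 250 bases before the transcript start that the promoter table uses, from RefSeq on GRCm38.p6, plus strand, at chr12:99884268-99884517, chr11:82780859-82781108 and chr14:50807666-50807915. The last 3 bases of the Tdp1 window, 0 of the Lig3 window and the last 19 of the Parp2 window lie inside the gene as RefSeq annotates it. Capitals mark matches, on either strand, to any of 6 motifs: AP-1 (TGANTCA), CRE (TGACGTCA), the HIF core (ACGTG), the E-box (CACGTG), which contains that core, the GC box (GGGCGG) and NRF1 (GCGCA and GCGC with any 1 base between).
Tdp1: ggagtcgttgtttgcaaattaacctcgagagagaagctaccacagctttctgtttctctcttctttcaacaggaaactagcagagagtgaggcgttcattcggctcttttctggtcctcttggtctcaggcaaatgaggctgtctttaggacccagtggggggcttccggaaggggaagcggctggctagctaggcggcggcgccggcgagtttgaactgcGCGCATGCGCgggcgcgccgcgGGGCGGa
Lig3: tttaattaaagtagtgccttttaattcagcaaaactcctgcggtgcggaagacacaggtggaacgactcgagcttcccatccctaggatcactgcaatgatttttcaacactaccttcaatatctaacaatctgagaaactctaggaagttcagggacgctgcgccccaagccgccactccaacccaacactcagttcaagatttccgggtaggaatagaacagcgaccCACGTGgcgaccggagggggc
Parp2: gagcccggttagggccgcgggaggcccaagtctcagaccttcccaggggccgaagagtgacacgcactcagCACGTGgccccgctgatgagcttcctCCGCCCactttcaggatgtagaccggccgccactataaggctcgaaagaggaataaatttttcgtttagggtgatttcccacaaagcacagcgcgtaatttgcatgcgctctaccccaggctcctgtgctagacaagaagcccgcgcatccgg
Lig3 and Parp2, which were lower in both lines, each held an E-box, at bases 21 to 16 in Lig3 and 179 to 174 in Parp2, counted back from the last base of the window. Tdp1, which was higher in both, held an NRF1 match at bases 29 to 20, counted the same way. An E-box was found in 6.02% of 32851 promoter windows of this length, an NRF1 match in 3.74% and a GC box in 32.7%. The HIF core was in 16.6% and the CRE letters in 1.55%. These windows belong to 27025 genes, so some genes count more than once, while each member counts once. Of 26 members with an entry, 5 held an E-box (Lig3, Parp1, Parp2, Rpa1 and Tdg), of which Parp1 and Tdg passed in no comparison. Against vector control Rpa1 fell in mouse Ape1 (−0.23) but not in human APE1 (0.20, no pass). An NRF1 match was held by 2 of the 26, Tdp1 and Parp3, and Parp3 fell in mouse Ape1 against vector control (−0.30). Of the 26 members, 46.2% held a GC box, 26.9% the HIF core and 11.5% the CRE letters. The AP-1 letters were in none of the 26 and in 6.75% of all windows. These motifs were chosen after the values were seen, and a match is a description of the letters.

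Among the long-patch and replication proteins, Rpa1 and Fen1 differed and Pcna and Lig1 did not pass. Rpa1, the large subunit of the single-strand binding protein RPA, had 10.65, 10.58 and 10.57 in human APE1, 10.16, 10.24 and 10.14 in mouse Ape1, and 10.41 on each vector control array, where the deposited values are identical. The 3 lines did not overlap, with human APE1 highest and mouse Ape1 lowest. Rpa1 was higher in human APE1 than in mouse Ape1 (0.42, 1.34-fold, SE 0.054, adjusted p = 0.00164), a call kept under each alternative setting (adjusted p up to 0.0462). It fell in mouse Ape1 against vector control (−0.23, adjusted p = 0.0241), which was lost without any 1 of the vector control arrays or mouse Ape1 replicate 1 or 3 (adjusted p = 0.0607 to 0.0843) and after chromosome medians were subtracted (adjusted p = 0.0876). That call was also lost with the replicate number as a block, with all clusters of the symbol averaged and with the p-values of the authors' deposited table. Rpa1 did not pass in human APE1 against vector control (0.20, adjusted p = 0.0567). A dimmer transcript cluster of Rpa1, with a mean of 5.57, did not pass in any comparison (0.09 between human APE1 and mouse Ape1). Rpa2 rose in human APE1 (0.26, adjusted p = 0.04), with 9.52, 9.50 and 9.69 against 9.29, 9.27 and 9.36 in vector control, a call lost whichever of the 9 arrays was left out (adjusted p = 0.057 to 0.113). Rpa3, the small subunit, did not pass.

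Fen1, which trims the displaced flap in long-patch repair and in replication, had 9.18, 9.13 and 9.35 in human APE1, 8.86, 8.91 and 8.81 in mouse Ape1, and 8.92, 8.93 and 8.84 in vector control. Human APE1 lay above both other lines, which overlapped. Fen1 was higher in human APE1 than in mouse Ape1 (0.36, 1.29-fold, adjusted p = 0.0141, and 0.0574 without mouse Ape1 replicate 3) and than in vector control (0.33, 1.25-fold, adjusted p = 0.0248). The call against vector control was lost without any 1 of its arrays or human APE1 replicate 1 (range of adjusted p 0.0566 to 0.0787). A dimmer transcript cluster of Fen1 gave 0.38 against vector control without a pass (adjusted p = 0.228), and averaging both clusters or taking the p-values of the authors' deposited table ended both calls. Pcna, the sliding clamp, had 11.86 to 11.91 in human APE1, 11.91 to 11.97 in mouse Ape1 and 11.93 to 12.02 in vector control, and passed in no comparison (95% intervals −0.21 to 0.03 in human APE1 and −0.16 to 0.08 in mouse Ape1 against vector control). Lig1, the replicative ligase, had 9.40 to 9.56 in human APE1, 9.59 to 9.62 in mouse Ape1 and 9.59 to 9.72 in vector control, also with no pass. Hmgb1, a DNA-bending protein that stimulates long-patch repair, stands on 7 transcript clusters, none of which passed, and which of its near-identical copies were measured is uncertain.

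Fen1, Pcna and RPA also serve DNA replication, so 20 replication genes were measured beside them. Of these, 4 rose and 3 fell in human APE1 against vector control (median 0.05), 3 rose and 5 fell in mouse Ape1 (median −0.05), and 2 were higher and 0 lower in human APE1 than in mouse Ape1 (median 0.03). The shares that passed were 35%, 40% and 10%, against 26.8%, 33.1% and 28.2% of named genes above the median level. The members' own medians were 0.00, −0.09 and 0.06, and those of all named genes 0.00, −0.03 and 0.03. Prim1, the small primase subunit, rose in human APE1 (0.27) and fell in mouse Ape1 (−0.20). After chromosome medians were subtracted neither of these Prim1 calls held (0.14, adjusted p = 0.107, and −0.11, adjusted p = 0.186). Prim1 was also higher in human APE1 than in mouse Ape1 (0.47, adjusted p = 0.000678), a call kept after that subtraction (0.25, adjusted p = 0.0129). Mcm6, a subunit of the replicative helicase, rose in both (0.26 and 0.34). Cdc45 fell in both, by 0.33 in human APE1 (adjusted p = 0.0109) and by 0.47 in mouse Ape1 (adjusted p = 0.00155). After chromosome medians were subtracted Cdc45 passed in mouse Ape1 (−0.42, adjusted p = 0.00299) but not in human APE1 (−0.20, adjusted p = 0.0752). Gins1 fell in human APE1 (−0.43, adjusted p = 0.012), and Mcm5 rose in mouse Ape1 (0.36, adjusted p = 0.00314). The part of replication in the values of Fen1 and Rpa1 was not tested.

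A wider list of 25 genes that assist the pathway reached absolute differences of 0.98 in mouse Ape1 and 0.42 in human APE1 against vector control, where the 30 members reached 0.48 in each. It had 3 rises and 5 falls in human APE1 against vector control (median 0.11), 5 and 5 in mouse Ape1 (median 0.02), and 4 and 3 in human APE1 against mouse Ape1 (median 0.05). The shares that passed were 32%, 40% and 28%, near the 26.8%, 33.1% and 28.2% of named genes above the median level. Subunits of the replicative polymerases moved in opposite directions in the mouse Ape1 line. Pole2, a subunit of polymerase epsilon, rose there by 0.98 (adjusted p = 2.79e-05) and in human APE1 by 0.35 (adjusted p = 0.00602), while its partner Pole4 fell by 0.75 (adjusted p = 0.000427) and 0.31 (adjusted p = 0.0309). Pold4, the smallest subunit of polymerase delta, fell by 0.83 in mouse Ape1 (adjusted p = 0.000236) and by 0.33 in human APE1 (adjusted p = 0.0247). Pole2 lies on chromosome 12, as does Tdp1, and still rose in mouse Ape1 after chromosome medians were subtracted (0.64, adjusted p = 0.000297). Tdp2, which frees ends from topoisomerase 2, was higher in human APE1 than in vector control (0.38, adjusted p = 0.00483) and than in mouse Ape1 (0.46, adjusted p = 0.00161). Huwe1, a ubiquitin ligase that targets polymerase beta, was lower in human APE1 than in mouse Ape1 (−0.88, adjusted p = 9.55e-05), fell in human APE1 (−0.35) and rose in mouse Ape1 (0.53) against vector control. Huwe1 lies on the X chromosome, as does Apex2, and after chromosome medians were subtracted it was still lower in human APE1 than in mouse Ape1 (−0.58, adjusted p = 0.00159) and higher in mouse Ape1 than in vector control (0.41, adjusted p = 0.00705). Its fall in human APE1 against vector control was lost (−0.17, adjusted p = 0.179).

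The median difference varied between chromosomes, so each member was set beside its own. The plot of each member against its chromosome shows where both go together. Chromosome 12 in mouse Ape1 against vector control (0.37) and the X chromosome in human APE1 against mouse Ape1 (−0.31) had the largest absolute medians of the 20 chromosomes in any comparison, and Tdp1 and Apex2 lie on them. Polb on chromosome 8 rose by 0.48 in mouse Ape1 where its chromosome shifted by 0.05, and Neil3, on the same chromosome, fell by 0.28. Lig3 and Rpa1 share chromosome 11, which shifted by −0.08 in mouse Ape1 and 0.00 in human APE1. Lig3 differed by −0.37 and −0.34 in these lines against vector control, and Rpa1 by −0.23 and 0.20. Parp2 on chromosome 14 differed by −0.33 and −0.30, where that chromosome shifted by −0.12 in each. The calls of Rpa1 in mouse Ape1 and of Parp2 in both lines were lost after chromosome medians were subtracted. Nthl1 on chromosome 17 fell by 0.42 in mouse Ape1 where that chromosome shifted by 0.03, and Parp3 on chromosome 9 was higher by 0.45 in human APE1 than in mouse Ape1 where that chromosome shifted by −0.18. The part of chromosome shifts in the members' differences was not tested.

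**Figure D4:**
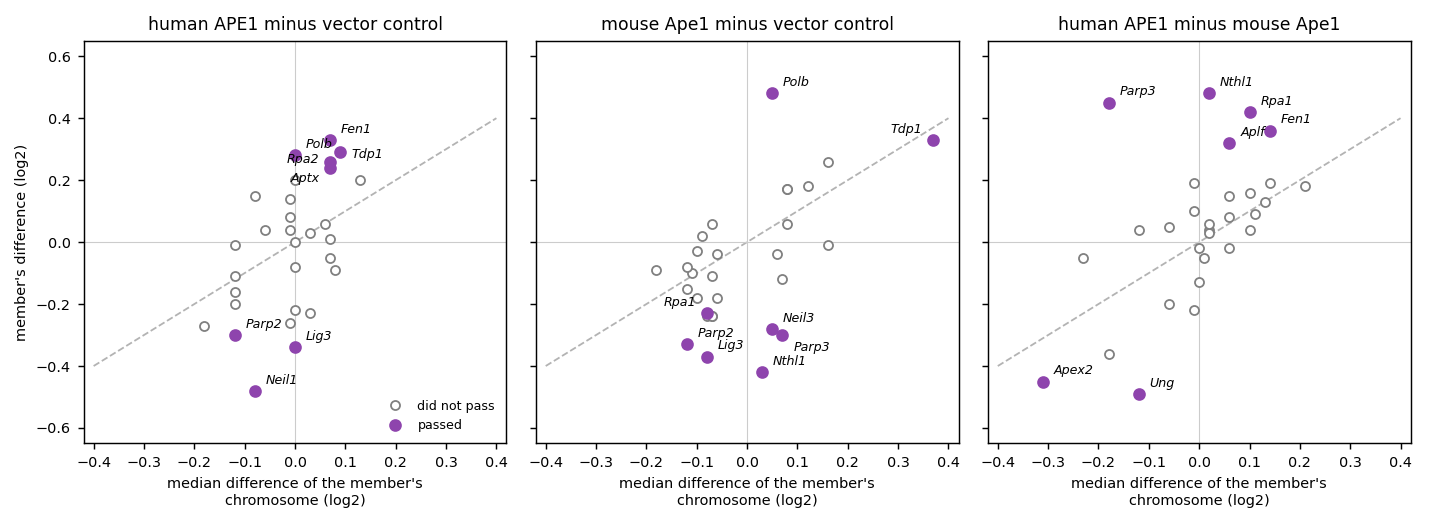
Each point is a repair gene, placed by the median difference of the expressed genes on its chromosome (horizontal axis, log2) and by its own difference (vertical axis, log2) in the 3 comparisons, and the dashed line marks equal values. Tdp1 lies near that line in mouse Ape1 minus vector control (0.33 beside 0.37), while Polb (0.48 beside 0.05) lies far from it.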

How the data were processed

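Per the labels' protocols, RNA from 9 dishes (60 mm, medium with 10% serum) was biotin-labelled and hybridised to Affymetrix arrays, grouped here by title. The deposited array values are log2 RMA expression values from Expression Console, core-exon analysis, per the labels. RMA brings arrays to a common distribution and compresses differences of dim transcripts. A table deposited by the authors holds, per the file headers, log2 group means, linear ratios between groups and unadjusted p-values, made with Partek per the submitters' processing notes (version, array design and genome build not given in the sources used here). Its means correlated with those of the array values at r = 0.988 to 0.989.

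Array values were used as deposited. All 41345 transcript clusters were fitted with limma 3.58.1 (lmFit and eBayes, two-sided) in R 4.3.3, as 3 group means over 9 arrays with 6 residual degrees of freedom and 2.07 from the prior. P-values were adjusted by Benjamini-Hochberg within each comparison. The number of arrays limits precision, and the median SE of a member's difference was 0.073. Symbols came from the authors' table and chromosomes from RefSeq (GRCm38.p6). A chromosome median was taken over named genes above the median level. The script was tested on simulated data. The members and lists were chosen with earlier results of these data known. A member that passed in any comparison was given with its array values, and of each wider list up to 3 genes a direction could be named. Stub1 was not matched. Figures were made with Python 3.11.15 and matplotlib 3.10.9.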

Additional observations from a re-analysis of the deposited data

How the results depend on the processing

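Settings other than single arrays moved the number of members that passed by over 1.5 times in these cases. In human APE1 against vector control, 8 became 3 with the replicate number as a block and 3 with only the 2 groups in the fit, 4 after array medians and 4 after chromosome medians were subtracted, and 5 with the p-values of the authors' deposited table. In mouse Ape1 against vector control, 8 became 5 after chromosome medians were subtracted. In the F-test, 13 became 8 with the replicate block. Same-numbered dishes deviated together at r = −0.07 to 0.10 over 9 pairs, beside −0.12 to 0.12 for dishes of other numbers. Of the 9 samples 3 correlated best with their own number. The labels name no batch, and these values cannot show whether same-numbered dishes were handled together. The block left 6 calls in each of the other comparisons (8 and 7 without it). Leaving out single arrays gave 2 to 6 members in human APE1 and 4 to 8 in mouse Ape1 against vector control, 5 to 7 between these lines and 8 to 10 in the F-test. Over all transcript clusters it gave 3185 to 4776, 4433 to 6772, 3691 to 4892 and 6438 to 8243, the lowest values being without human APE1 replicate 1 in the first and mouse Ape1 replicate 1 in the second. The sign changed for 1 call, Tdp1 in mouse Ape1 against vector control (−0.01, adjusted p = 0.951, after chromosome medians were subtracted). That call was lost there and did not become a fall. Of 67 differences that did not pass, 13 passed under at least 1 setting. Why calls changed between settings was not tested.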
